A study of Arabidopsis thaliana with 12 samples.

Results

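CCS and CUTA are nuclear genes of *Arabidopsis thaliana* whose products bind copper, and they were 2 of the 691 genes on the array to which the platform annotation gave a probe of their own. CCS (AT1G12520) codes for the copper chaperone of copper/zinc superoxide dismutase, and CUTA (AT2G33740) for a copper-binding protein of the chloroplast. Each had 1 probe of 3439. Both genes were chosen because of their values in recovery against control plants. That difference is therefore given as a description, and whether either gene passed the threshold of the fit over all features is stated only as a count beside the share of all features, as support for nothing. Total RNA was profiled in 12 samples of the wild-type ecotype Columbia 0, all on 1-channel array columns. The 6 control samples came from plants kept in growth light at 80 µE. The 6 recovery samples came from plants that spent 1 h at 1000 µE and went back to 80 µE. The labels give the time back at 80 µE as 2 h in the titles and 1 h in the source names.

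Copper/zinc superoxide dismutases turn superoxide, which photosystem I forms when light exceeds what carbon fixation can use, into hydrogen peroxide. They need a copper ion at the active site, and CCS hands it over to the enzymes of the cytosol and of the chloroplast. In Arabidopsis the copper/zinc enzymes and CCS are kept low when copper is scarce, through a microRNA that targets their transcripts, which leaves copper for plastocyanin, the electron carrier between the cytochrome b6f complex and photosystem I. CUTA belongs to a protein family named for copper tolerance in bacteria; the plant protein is imported into the chloroplast, and its task there is little known.

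In both groups, sample 1 was most like sample 2, sample 3 most like 4 and sample 5 most like 6. Correlations were 0.853 to 0.942 within these pairs and 0.683 to 0.824 between them on the log2 scale. No label ties a sample to its own plant or culture, so the SDs below measure the spread between samples, which may in part be technical. The median of all probes in a sample was 0.426 to 0.458 in recovery 1, 2, 5 and 6 and 0.196 to 0.284 in the other 8 samples. Light treatment differs between the groups, time of day may differ as well, and their effects cannot be told apart. The labels name no organ. Of 14 marker genes of photosynthetic tissue, 1 had a probe of its own, the antenna gene LHB1B2 (AT2G34420), with intensities of 14.6 to 20.1 in control and 13.3 to 19.0 in recovery samples. Of 10 root and seed markers none had its own probe, so other organs were not checked.

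The CUTA transcript was lower in every recovery sample than in any control sample. In the linear intensities that the authors deposited, with 100 as the highest value, the 6 control samples had a lowest value of 6.73, a median of 7.01 and a highest value of 7.41. The 6 recovery samples had a lowest value of 3.82, a median of 4.30 and a highest value of 4.92. The groups did not overlap, and the lowest control value stood 1.37-fold above the highest recovery value. The means were 7.06 ± 0.29 (SD, n = 6) in control and 4.33 ± 0.37 (SD, n = 6) in recovery samples, a 1.63-fold higher level in control plants. CUTA was listed at 0 in none of the 6 control and none of the 6 recovery samples. In whole-plant or tissue RNA, fewer cells with a transcript and less of it per cell cannot be told apart.

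The CCS transcript was also lower on average after recovery, but its values were dim and its groups overlapped. The control samples had a lowest deposited intensity of 0.0604, a median of 0.125 and a highest value of 0.222. The recovery samples had a lowest value of 0.0429, a median of 0.0561 and a highest value of 0.100. Control 5 and 6, at 0.0632 and 0.0604, were below recovery 4 and recovery 1, at 0.100 and 0.0917, so that 3 of the 6 recovery values lay under all controls. The means were 0.125 ± 0.062 (SD, n = 6) in control and 0.0652 ± 0.0250 (SD, n = 6) in recovery samples, a 1.92-fold higher level in control plants. CCS was listed at 0 in 0 of 6 control and 0 of 6 recovery samples, although 171 to 383 probes were at 0 in each sample.

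**Figure D1:**
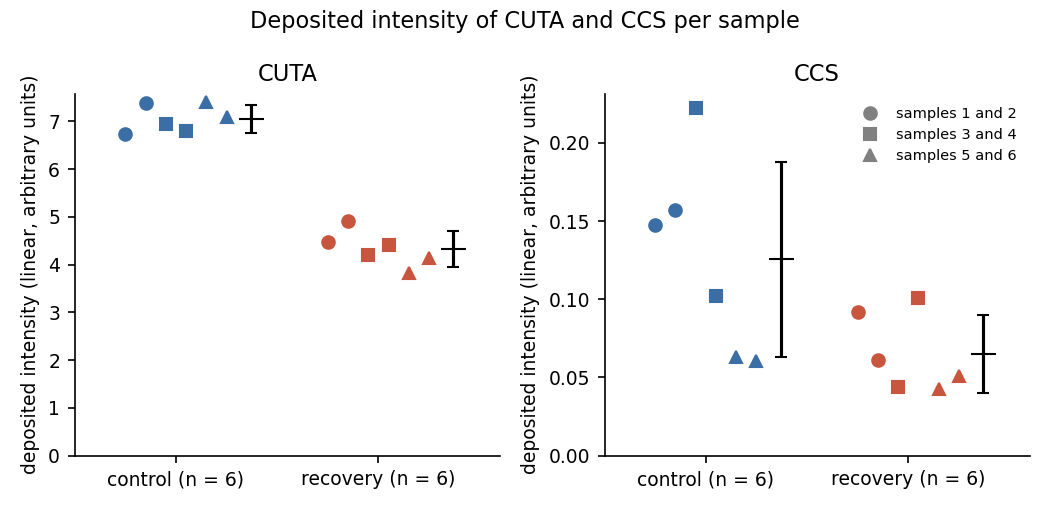
Deposited intensity (linear, arbitrary units) of CUTA and CCS in each of the 6 control and 6 recovery samples; marker shapes give the pairs of samples and the black bars the mean ± SD. CUTA runs from 3.82 to 4.92 in recovery and from 6.73 to 7.41 in control samples, while the CCS values of the groups overlap.

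The relative spread differed between the 2 genes. The coefficient of variation of CUTA was 4.09% over the control and 8.59% over the recovery samples. That of CCS was 49.8% and 38.4%. For CUTA the log2 of the deposited values differed by 0.031 to 0.133 between the 2 samples of a control pair and by 0.073 to 0.137 between those of a recovery pair. For CCS these differences ran from 0.066 to 1.12 in control and from 0.247 to 1.20 in recovery pairs. The widest of them were in samples 3 and 4, where control 3 had 0.222 and control 4 had 0.102, and recovery 3 had 0.0437 and recovery 4 had 0.100. Samples 3 and 4 of a group thus disagreed on CCS by more than 2 control or recovery samples of any other pair.

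Because the medians of the samples differed, the intensities were quantile-normalised, so that a probe's value is set by its position in its own sample, and the lowest values were raised to a floor of -5.07 on the log2 scale. On this scale the mean of CUTA was 2.79 ± 0.08 (SD, n = 6) for control and 2.14 ± 0.16 (SD, n = 6) in recovery samples. The log2 difference was -0.65 with a standard error of 0.14, and the groups again did not overlap. That error counts 12 separate samples. It was 0.14 with the replicate number as a block, 0.18 with the pairs as a random block and 0.27 with the pairs averaged. The mean of CCS was -2.64 ± 0.53 (SD, n = 6) for control and -4.36 ± 1.02 (SD, n = 6) in recovery samples. The log2 difference was -1.72 with a standard error of 0.45. This error was 0.35 with the replicate number as a block, 0.59 with the pairs as a random block and 0.60 with the pairs averaged. Recovery 2, 5 and 6 were at the floor, so the size of this difference depends on where the floor is set. Recovery 4, at -2.58, lay above 4 of the control samples.

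Quantile normalisation moved CCS more than CUTA. With the floor applied, the log2 value of CCS changed by -1.22 to -0.53 in recovery 1, 2, 5 and 6, the samples with high medians. In recovery 2, 5 and 6 the floor cut the change short, so normalisation alone lowered CCS at least as far. In the other 8 samples the change was 0.17 to 0.87. For CUTA the change was -0.07 to 0.13 over all 12 samples. Recovery 2 and control 6 had nearly equal deposited CCS intensities, 0.0613 and 0.0604. In recovery 2, 9.48% of probes had a lower value than CCS, against 22.3% in control 6. The normalised log2 values were -5.07, which is the floor, and -3.22. Over the 12 samples this share ran from 22.3% to 50.8% in control and from 9.01% to 32.0% in recovery samples for CCS. For CUTA it ran from 98.3% to 98.5% and from 97.0% to 97.8%. On the deposited scale the log2 difference of CCS was -0.87 with a standard error of 0.37, and that of CUTA -0.71 with a standard error of 0.14, while the median difference of all 3438 features was 0.43. Relative to that median the differences were -1.30 for CCS and -1.14 for CUTA. CUTA was among the brightest probes, where quantile normalisation changed it by only -0.07 to 0.13. The median shift of all features need therefore not hold at the intensity of CUTA, and -1.14 may overstate its fall.

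**Figure D2:**
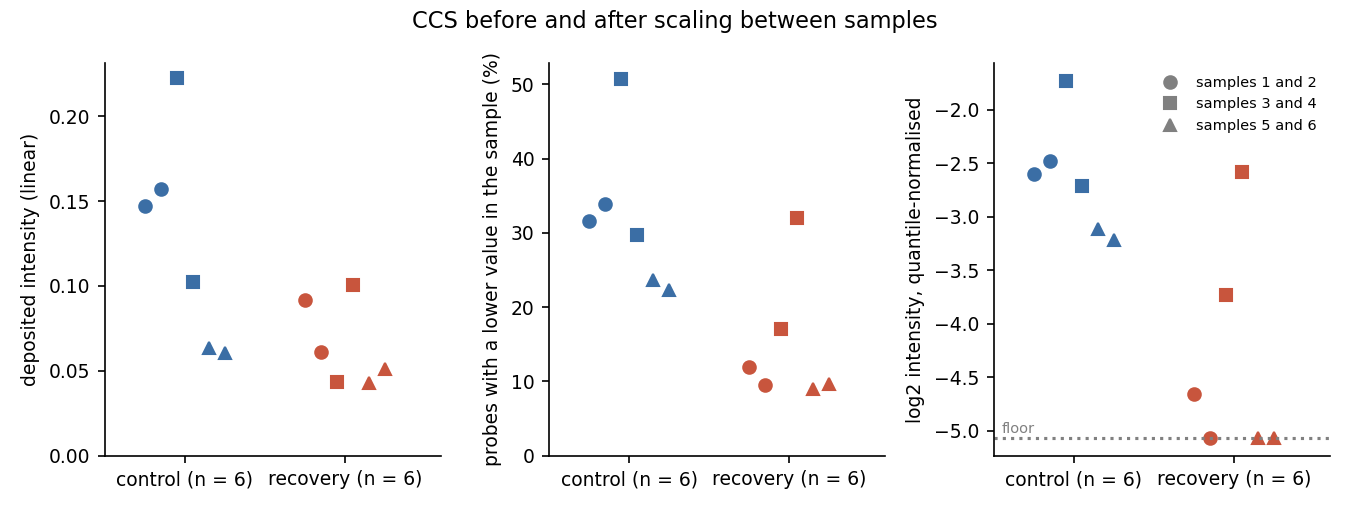
CCS in each sample as deposited intensity (left), as the percentage of probes with a lower value in the same sample (middle) and as log2 intensity after quantile normalisation (right; dotted line, the floor); marker shapes give the pairs of samples. Recovery 2, 5 and 6 lie at the floor on the right, though their deposited values, 0.0429 to 0.0613, are near those of control 5 and 6.

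All 3 pairs of samples gave a lower CUTA value in recovery under each of 4 scalings (quantile, as deposited, median centring and cyclic loess). After quantile normalisation the log2 difference was -0.46 for samples 1 and 2, -0.68 for the pair of 3 and 4, and -0.81 for that of 5 and 6. On the deposited scale the differences were -0.59, -0.67 and -0.87 in the same order. By single replicate number, recovery minus control ran from -0.83 to -0.42 after quantile normalisation and from -0.96 to -0.59 on the deposited scale, below 0 for 6 of 6 numbers. In samples 3 and 4 the medians of the groups were closest, at 0.217 and 0.212 in control and 0.197 and 0.196 in recovery. There the CUTA difference was -0.55 after median centring and -0.79 after cyclic loess. Whether the scaling of the samples contributes to the difference was not tested. Median centring gave -1.30 for samples 1 and 2 and -1.95 for the pair of 5 and 6, where recovery medians were higher than control medians.

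CCS was lower in recovery in 3 of 3 pairs as well, but the order of the pairs depended on the scale. After quantile normalisation the log2 difference was -2.33 for samples 1 and 2, -0.94 for the pair of 3 and 4, and -1.90 for that of 5 and 6. On the deposited scale it was -1.02, -1.19 and -0.40. Samples 5 and 6 thus had the smallest of the 3 differences as deposited, while samples 3 and 4 had it after quantile normalisation, median centring (-1.06) and cyclic loess (-0.89). Within samples 3 and 4 the mean rested on 1 replicate number. Number 3 had a difference of -2.00 and number 4 one of 0.13 after quantile normalisation, and -2.35 and -0.02 on the deposited scale. By replicate number CCS was lower in recovery for 5 of 6 numbers under quantile normalisation, median centring and cyclic loess and for 6 of 6 as deposited, number 4 being the exception.

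**Figure D3:**
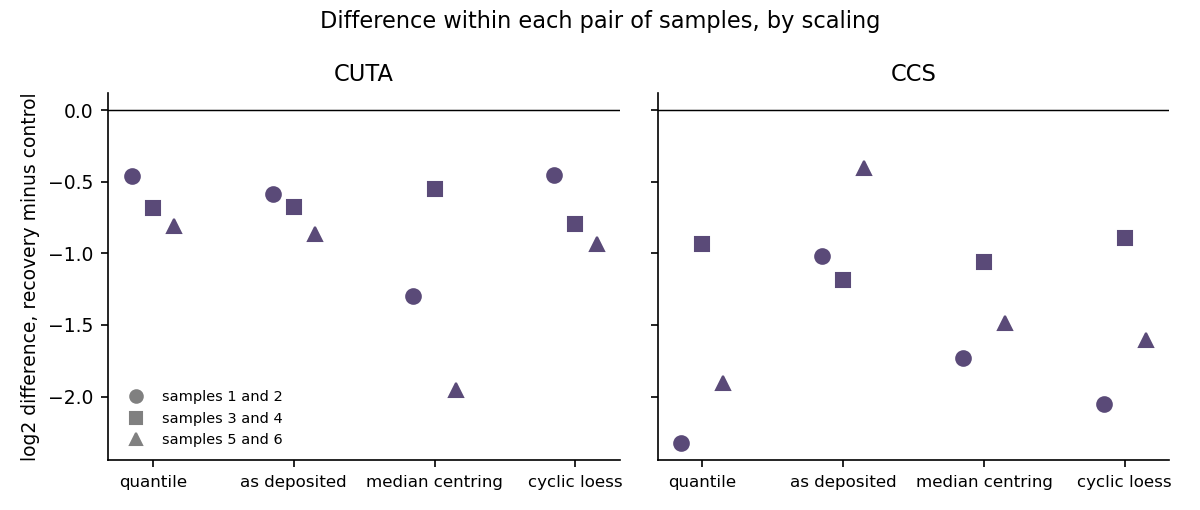
Log2 difference, recovery minus control, of CUTA and CCS within samples 1 and 2, 3 and 4, and 5 and 6, under 4 scalings; each point is the difference of 2 means of 2 samples. All points lie below 0, and CCS in samples 5 and 6 goes from -1.90 after quantile normalisation to -0.40 as deposited.

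Of all 3438 features, 104 passed an adjusted p under 0.05 in the limma fit (Benjamini-Hochberg), which is 3.03%, and 1 of the 2 copper protein genes, CUTA, was among them. That fit takes no account of the pairs: with the pairs as a random block limma called 3 features, and with the pairs averaged it called 0 (203 at an unadjusted p under 0.05). Features that passed this threshold and were lower in recovery made up 1.83% of all features. As the genes were chosen on this contrast, nothing is read from that count. CUTA was not called when the replicate number entered as a block, when pairs entered as a random block or when they were averaged, and CCS was called in none of these fits. All 6 recovery values were below all 6 control values in 1.54% of features as deposited and in 2.73% after quantile normalisation. CUTA met this on both scales and CCS on neither.

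Direction did not depend on the settings tried, but size did. Over the 15 alternatives other than leaving out single samples, the log2 difference of CUTA ran from -1.27 to -0.57. That of CCS ran from -2.12, without samples 3 and 4, to -0.87 as deposited. When each sample was left out in turn, CUTA stayed between -0.71 and -0.62. CCS ranged from -2.08, without recovery 4, to -1.54, without control 3. Setting the floor at the 10th percentile of positive values in place of the 5th gave -1.08 for CCS, and left CUTA, which is far above the floor, at -0.65.

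**Figure D4:**
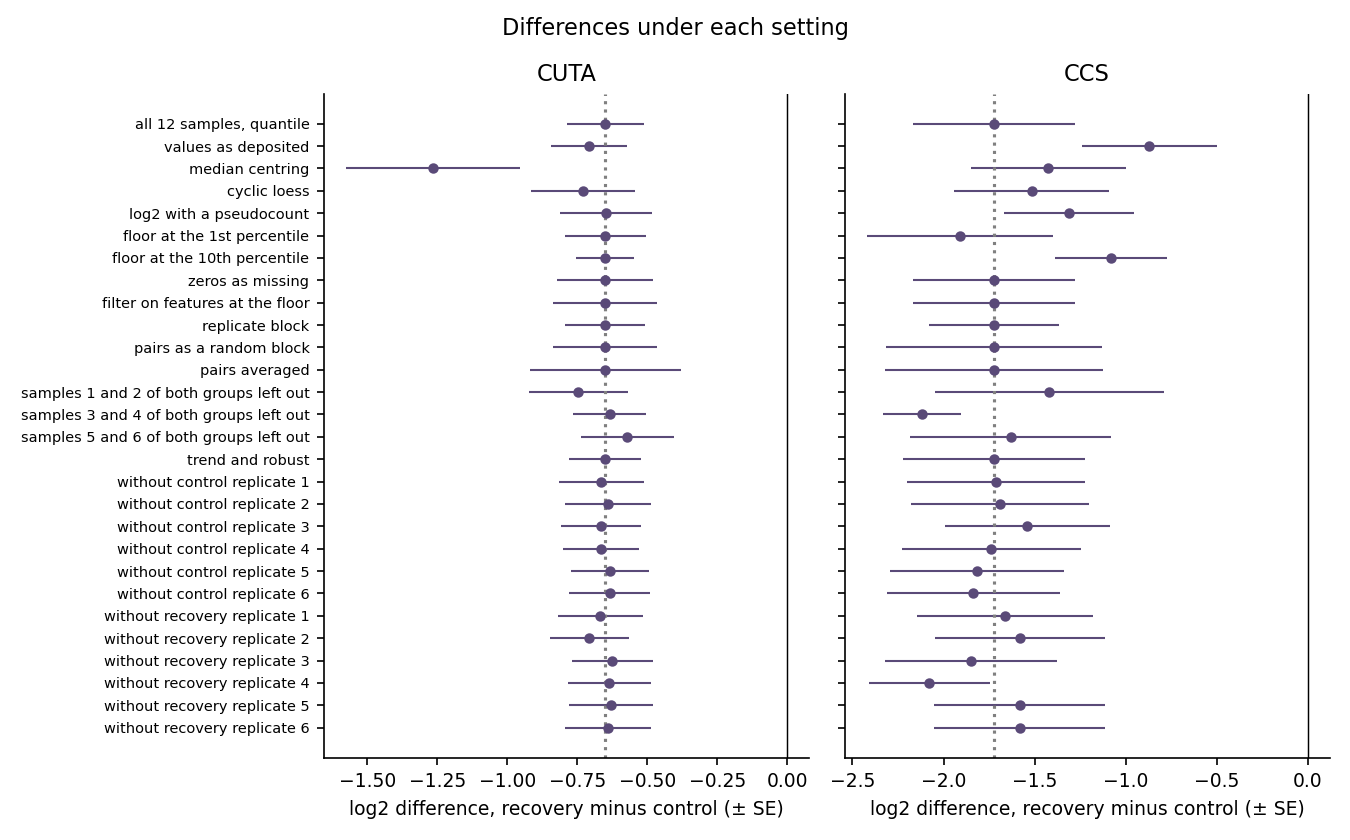
Log2 difference, recovery minus control, with its standard error, of CUTA and CCS with all 12 quantile-normalised samples (top; dotted line) and under each other setting. Every value is below 0; CUTA departs to -1.27 with median centring, and CCS spreads from -2.12 to -0.87.

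Little else of the copper pathway could be read on this array. Of 66 genes in 5 lists, 3 had a probe of their own, CCS and CUTA included, and a further 3 shared a probe with other genes and were not named. Of 25 copper chaperones, transporters and regulators the 2 with their own probe were CCS and CUTA. None of 14 copper enzymes and copper proteins had one, a list that holds the copper/zinc superoxide dismutases CCS serves and plastocyanin. Nor did any of 6 genes for iron and manganese superoxide dismutases and for CPN20, the activator of the iron enzyme FSD1. None of 7 metallothioneins, small proteins that bind copper and zinc, had a probe of its own either. The level of CCS can therefore not be set beside that of its client enzymes here.

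In the list of 14 genes linked to peroxide removal, the next step after superoxide dismutase, 1 had its own probe, the chloroplast peroxiredoxin gene AT3G52960. Its deposited intensity had a lowest value of 0.132, a median of 0.309 and a highest value of 1.21 in control samples, and 0.292, 0.669 and 1.37 in recovery samples. The groups overlapped across most of their range. The log2 difference was 0.34 with a standard error of 0.63, which did not pass the limma test over all features (adjusted p = 0.817). Samples 3 and 4 gave 1.90, samples 1 and 2 gave -0.38 and samples 5 and 6 gave -0.49. The pairs disagreed in direction. Apart from CCS and CUTA, 0 of 1 measured genes of the 5 lists was called in either direction, beside 3.03% of all 3438 features. With 1 gene, nothing is read from this count.

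Among 591 other genes with their own probe and at most 3 of 12 values at the floor, AT1G62250 had the values most like those of CUTA over the 12 samples, with a Pearson r of 0.984 after quantile normalisation. It had the highest r as deposited (0.970) and after cyclic loess (0.975) too. Its mean log2 intensity was 3.05 ± 0.10 (SD, n = 6) for control and 2.45 ± 0.12 (SD, n = 6) in recovery samples, a difference of -0.60, near the -0.65 of CUTA. The next were AT2G46630 (r of 0.911), AT3G56290 (0.898) and the calmodulin-binding IQ-domain gene iqd32 (AT1G19870, 0.872). As deposited, AT2G46630 had an r of 0.898, AT3G56290 one of 0.702 (rank 11) and iqd32 one of 0.500 (rank 21). These genes differed more between the groups than CUTA did, with log2 differences of -1.74, -1.83 and -1.52.

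For CCS the most similar gene was AT4G18180, with an r of 0.925 after quantile normalisation, 0.803 as deposited and 0.890 after cyclic loess, the highest of 591 genes on each scale. AT4G02580, a subunit of mitochondrial complex I, had an r of 0.901. Every r with CCS after quantile normalisation rests in part on the floor values of CCS, in recovery 2, 5 and 6. AT4G02580 was at the floor too, in recovery 1 and 2. AT1G13370, a histone H3 gene, had an r of 0.884, and AT3G54210, which codes for the plastid ribosomal protein RPL17, had 0.874. As deposited, AT4G02580 had an r of 0.771, AT1G13370 one of 0.602 (rank 14) and AT3G54210 one of 0.723. The r between CCS and CUTA was 0.62, rank 61 among the genes compared with CCS and rank 37 among those compared with CUTA. As deposited it was 0.60, with ranks of 13 and 15. Recovery 4, the highest recovery sample for CCS, stood among the other recovery samples for CUTA, at a deposited intensity of 4.41. All these correlations are over 12 samples that share groups, pairs and the scale of their columns, and they describe the values without a test.

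**Figure D5:**
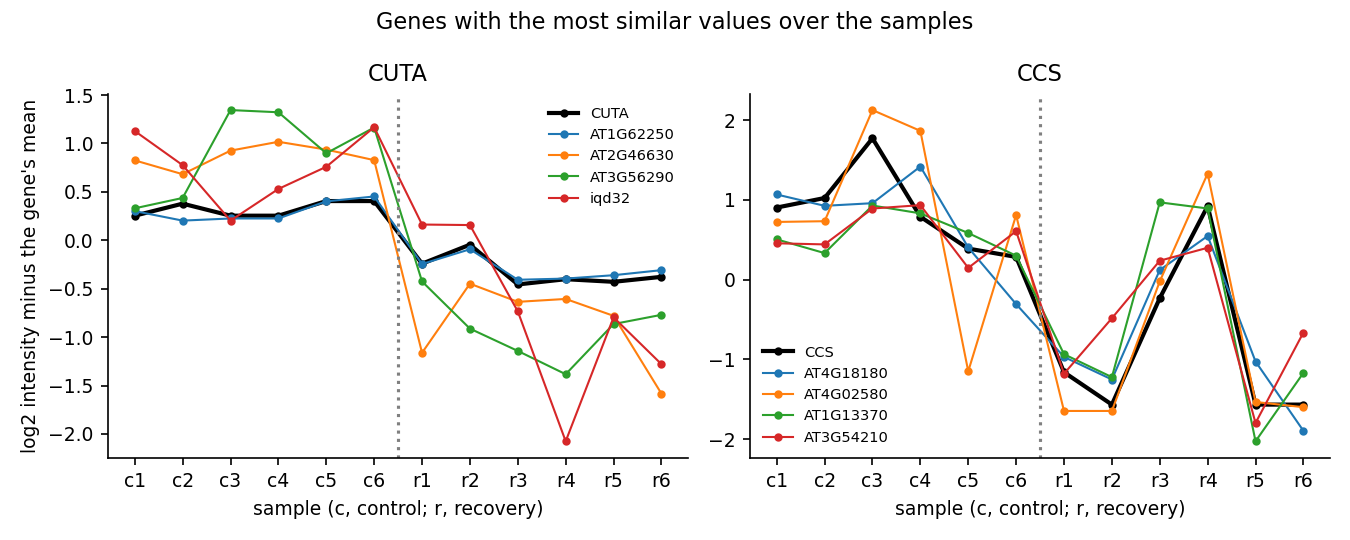
Quantile-normalised log2 intensity minus each gene's mean over the 12 samples, for CUTA and CCS (black) and the 4 genes with the highest Pearson r to each; c1 to c6 are control and r1 to r6 recovery samples, and lines only link the values of a gene. AT1G62250 lies on CUTA in nearly every sample, and CCS and its 4 genes are higher in r3 and r4 than in r1, r2 and r5.

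In the reference gene table the annotated span of CUTA overlaps those of both its neighbours, AT2G33735 and the purine permease gene PUP2 (AT2G33750). That of CCS overlaps neither neighbour. None of these 4 neighbours had a probe of its own. The sources used here do not give the stretch the CUTA probe covers, so whether its signal holds RNA of a neighbour was not tested. The table lists 3 transcripts of CCS and 2 of CUTA, and the single probe of each gene does not tell them apart.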

How the data were processed

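The authors deposited 1 table of intensities, on a linear scale from 0 to 100, for 3439 probes in 12 samples. How the authors scanned, background-corrected and scaled the deposited intensities is not given in the sources used here, and the values show only that the sample medians differ. Group and replicate number were taken from the sample titles. Of the probes, 692 had 1 gene in the platform annotation, 870 had several and 1877 had no name here; 690 of the 692 matched the reference gene table, and probes with several genes were tested but not named. Without a named genome build, positions are left out. No sequences were used here.

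With limma 3.58.1 in R 4.3.3, intensities were quantile-normalised, raised to a floor at the 5th percentile of positive values (0.0298) where lower, and put on the log2 scale. Probes of 1 gene were averaged, which left 3438 features. Groups were compared with limma over 12 samples without covariates, two-sided, with Benjamini-Hochberg adjustment, calling an adjusted p under 0.05. The fit was tested on simulated data with independent samples. It recovered 32% of log2 changes of 1 and 73% of log2 changes of 2, and 5.41% of its calls were false. The simulated samples had no pairs, so these shares do not hold for the paired samples here. Across the groups, deviations from the group mean had correlations of 0.110 to 0.462 for equal replicate numbers and of -0.229 to 0.008 for samples of different pairs; all 6 of the former exceeded 0.1. The fit behind the values given has no term for replicate number or pair; fits with such terms were alternatives, and are named where they change a call or a standard error. The number of arrays limits the precision.

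The genes, gene lists and alternatives were chosen with earlier results of these data known. Named are CCS, CUTA, members of the 5 lists with their own probe, and, for each of both genes, the 4 genes with the highest Pearson correlation.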

Additional observations from a re-analysis of the deposited data

How the results depend on the processing

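The direction of CCS and CUTA was the same in all 27 alternatives. On the values as deposited the log2 difference of CCS was -0.87, and with median centring that of CUTA was -1.27; both moved by more than the spread between samples. Without single samples CCS ran from -2.08 to -1.54 and CUTA from -0.71 to -0.62. The 104 calls became 65 with median centring, 60 with cyclic loess, 69 with a filter on features at the floor, 3 with the pairs as a random block, 0 with the pairs averaged (203 at an unadjusted p under 0.05), 28 without samples 1 and 2, 416 without samples 3 and 4, 10 without samples 5 and 6, and 42 to 93 without single samples, the fewest without recovery 5. Values as deposited gave 79 higher and 30 lower features, median centring 14 and 51, against 41 and 63. Of the 5 lists, 1 gene (CUTA) was called with all 12 samples. The count was 0 with median centring, cyclic loess, a pseudocount, zeros as missing, the filter, the replicate block, the random block, averaged pairs and without samples 1 and 2 or 5 and 6. It was 2 without samples 3 and 4, where CCS was also called, but so were 416 of all 3438 features. As both genes were chosen on this contrast, nothing is read from that call. Without single samples it was 0 to 1. CUTA lost its call without control 2 or 6 or recovery 1, 4, 5 or 6. Without recovery 4, CCS was called in place of CUTA, among 93 of 3438 features. A block for the replicate number gave 106 calls, CUTA not among them. For these changes of calls the cause was not tested. The likeness of genes on other scales was added after the data were seen. Spot background was not analysed here, so what signal over background limits for CCS, the dim gene, is unknown. Of 12 named genes in 2 groups, no sample stood apart from its group by Dixon's criterion. As the samples come in pairs, 2 samples that depart together can hide each other, so the criterion cannot show that no sample is unusual.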
